A study of Mus musculus with 6 samples.

Results

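The high-mobility group (HMG) proteins are small, abundant proteins of chromatin, and 9 of their genes were followed here in cultured muscle satellite cells (MuSCs), the stem cells of skeletal muscle. The members were the rows of the count table with the symbols *Hmgb1*, *Hmgb2*, *Hmgb3*, *Hmga1*, *Hmga2*, *Hmgn1*, *Hmgn2*, *Hmgn3* and *Hmgn5*, 9 of 20654 genes listed. The set was chosen by earlier results of the same contrast, in which *Hmgb1* was called lower, so the differences between the groups are given below as a description. Whether edgeR called a member is stated, but it is no independent evidence, and no p-value is given for the members. MuSCs of C57BL/6 mice were sorted from forelimb muscle as VCAM1+ CD31- CD45- Sca1- cells, grown on Matrigel for 3 d, and sequenced. The 6 libraries comprise 3 controls and 3 with the label *Piezo1* cKO, called cKO-labelled below. The cKO mice carried *Piezo1* flox/flox and *Pax7* CreERT2/+, a tamoxifen-inducible Cre expressed from the *Pax7* locus, so recombination was directed to *Pax7*-expressing cells. The labels call the control mice wild type, and the study's text names the control of this comparison as *Pax7* CreERT2/+, which puts Cre in both groups. The growth medium of both groups held 30% foetal bovine serum, 1% chicken embryo extract, 10 ng/ml basic fibroblast growth factor and 1 μM 4-hydroxytamoxifen. The age of the mice behind these libraries was not given in the sources used here. The labels number the libraries of each group from 1 to 3 without naming the animals, so the spread between libraries may be partly technical.

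HMG proteins bind DNA or nucleosomes with little sequence preference and compete with linker histones for chromatin. The HMGB proteins bend DNA through a pair of HMG boxes, and HMGB1 also acts as an alarm signal when it leaves the cell, through the receptors RAGE (*Ager*), TLR2 and TLR4 and in a complex with CXCL12 that signals through CXCR4. The HMGA proteins bind the minor groove of AT-rich DNA through AT-hooks, and HMGA2 is known as a factor of stem and progenitor cells that is repressed by let-7 microRNAs. The HMGN proteins bind the nucleosome core and loosen its packing. In muscle, HMGB1 is known for its part in repair after injury and HMGA2 for its part in myoblast growth, where *Igf2bp2* is one of its targets.

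Counts of unique molecular identifiers (UMIs), each of which marks 1 cDNA molecule, totalled 740936, 931168 and 891531 in control and 810096, 726378 and 769295 in the cKO-labelled libraries. Levels are given as CPM, which are counts divided by a library size that edgeR's TMM factors adjust, on which a floor of 3 counts stood at 3.35 to 4.31 CPM. Such floors cover counting error only. Together the members held between 0.237% and 0.307% of the counts of a library, and all 9 passed the filter on low counts. *Piezo1*, the deleted gene, had 11, 5 and 6 counts in control MuSCs, against 7, 12 and 9 in cKO-labelled ones. This gave 9.49 ± 5.53 CPM (SD, n = 3) in control, against 12.2 ± 3.50 CPM (SD, n = 3) in the other group (p = 0.5 by a two-sided exact permutation test, which at 3 against 3 cannot go below 0.1). With 5 to 12 counts a library, the counts of the targeted gene were not lower in the cKO-labelled libraries and do not serve as a check of the labels, on which each direction below rests. Whole-gene counts hold transcripts with and without the deleted exons alike.

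The labelled cell type was checked against marker genes. The 10 satellite cell and myoblast markers summed to between 2298 and 2857 CPM in every library, led by *Myod1* with 1087 to 1569 CPM. Only *Calcr*, a marker of quiescent cells, was at 0 in all libraries or without a row. *Pax7* was low, with 10, 26 and 19 counts in control and 16, 5 and 12 in the cKO-labelled libraries. *Chodl* had 0 counts in each control library and 2, 1 and 0 in the cKO-labelled ones, under the floor of 3 counts. Of the 10 markers 8 were tested and none was called by edgeR. Endothelial markers summed to at most 21.2 CPM and blood cell markers to at most 27.9 CPM, with *Cdh5*, *Cldn5*, *Flt1*, *Ptprc*, *Adgre1*, *Tyrobp*, *Cd3e* and *Cd79a* at 0 or without a row. Fibro-adipogenic markers summed to between 316 and 573 CPM, led by *Col3a1*. Of the 4 tested, 1, *Dcn*, was called lower in the cKO-labelled libraries, against 0.316% of all genes tested. *Cd34*, *Col1a2* and *Col3a1* had log2 fold changes of -1.59, 0.85 and 0.41 and were not called. Pericyte and smooth muscle markers summed to between 106 and 564 CPM, led by *Acta2*, with overlapping groups. Markers of myocytes, the differentiated cells that MuSCs form, summed to 292, 112 and 270.4 CPM in the control libraries and to 511, 1395 and 672 CPM in the cKO-labelled libraries, led by *Acta1*, while *Ckm* and *Tnnc2* were at 0 or without a row. The myocyte sum was thus higher in each cKO-labelled library than in any control library, and was highest in library 2, although none of its 5 tested genes was called. The part of these cells in the results below was not tested.

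The Hmgb genes held the clearest difference between the groups. *Hmgb1* is on the minus strand of chromosome 5 (GRCm38), from 149046702 to 149184489, and *Hmgb2* on chromosome 8 from 57511907 to 57515999, on the plus strand. *Hmgb3* lies on the X chromosome from 71555918 to 71560676, on the plus strand. The sequences around their start sites are printed because *Hmgb1* and *Hmgb2* moved together and the third gene of the family did not. They are the RefSeq windows of GRCm38.p6 from 250 bases before to 50 bases after the start, 5′ to 3′ on the strand of the gene, at chr5:149053008-149053307 (minus), chr8:57511593-57511892 (plus) and chrX:71555667-71555966 (plus). Capitals mark each CCAAT, the letters that the factor NF-Y is known to bind, searched on both strands.
*Hmgb1*: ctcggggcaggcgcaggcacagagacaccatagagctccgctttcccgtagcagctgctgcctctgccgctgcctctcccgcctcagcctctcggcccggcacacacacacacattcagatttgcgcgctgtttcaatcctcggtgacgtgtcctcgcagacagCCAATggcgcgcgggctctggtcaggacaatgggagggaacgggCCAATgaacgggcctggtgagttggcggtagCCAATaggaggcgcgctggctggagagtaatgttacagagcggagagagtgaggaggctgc
*Hmgb2*: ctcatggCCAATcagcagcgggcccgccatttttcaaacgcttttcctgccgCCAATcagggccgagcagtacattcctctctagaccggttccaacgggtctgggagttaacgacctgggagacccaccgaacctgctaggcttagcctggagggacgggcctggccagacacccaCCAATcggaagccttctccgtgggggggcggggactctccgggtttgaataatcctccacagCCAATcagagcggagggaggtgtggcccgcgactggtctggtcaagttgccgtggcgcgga
*Hmgb3*: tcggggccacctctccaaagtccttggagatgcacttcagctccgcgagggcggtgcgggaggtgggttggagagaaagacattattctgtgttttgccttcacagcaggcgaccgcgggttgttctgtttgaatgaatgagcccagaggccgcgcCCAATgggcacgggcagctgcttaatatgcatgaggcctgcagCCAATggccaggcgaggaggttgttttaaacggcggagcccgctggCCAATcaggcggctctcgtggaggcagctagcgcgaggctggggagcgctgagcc
The *Hmgb1* window holds 3 matches, at 86, 42 and 11 bases before the RefSeq start. The *Hmgb2* window holds 4 and the *Hmgb3* window 3, all on the strand shown. For *Hmgb1* and *Hmgb2* this RefSeq start differs from the start of the gene as located above. Among 32851 windows of the same length, 37.4% hold at least 1 match, 3.37% at least 3 and 1.06% at least 4. A second RefSeq window of *Hmgb1* holds 0. *Hmgn1* and *Hmgn5* hold 2 each and *Hmgn2* 1, whereas *Hmga1* in both of its windows and *Hmga2* hold 0. The matches are a description of the sequence, and they were present in *Hmgb3* as well as in the 2 genes that differed.

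*Hmgb1*, the most abundant member in control by CPM, had 647, 726 and 682 counts in the control libraries, or 930.4, 809.8 and 805.3 CPM. In the cKO-labelled libraries it had 475, 359 and 382 counts, or 602, 474 and 506 CPM. Every cKO-labelled library lay below every control library, as for 8.31% of all genes tested, and the lowest value was in library 2. The mean was 848.5 ± 71.0 CPM (SD, n = 3) in control, against 527.5 ± 66.6 CPM (SD, n = 3) in the cKO-labelled libraries, which is 62.2% of control. The log2 fold change was -0.68 with a standard error of 0.14. In bulk RNA, fewer cells of a type and less RNA per cell cannot be told apart.

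*Hmgb2*, its close relative, known to be most abundant in dividing cells, had 608, 514 and 503 CPM in the control libraries. It had 382, 305 and 366 CPM in the cKO-labelled libraries. The groups did not overlap, and the highest control value and the lowest cKO value came from the same libraries as for *Hmgb1*. The mean was 542 ± 57.8 CPM (SD, n = 3) in control, against 351 ± 40.3 CPM (SD, n = 3) in the cKO-labelled libraries, or 64.7% of control, with a log2 fold change of -0.62 and a standard error of 0.14. *Hmgb3*, the third member, known from blood and neural progenitors, had 183, 213 and 168 CPM in control and 184, 174 and 180.2 CPM in the cKO-labelled libraries. Its groups overlapped, and its log2 fold change was -0.07 with a standard error of 0.14 and turned positive, at 0.04, without control library 2.

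edgeR called 67 of the 8551 genes tested at an adjusted p under 0.05, of which 27 were lower and 40 higher in the cKO-labelled libraries. *Hmgb1* and *Hmgb2* were among the genes called lower, 2 of 9 members against 0.316% of all genes tested, and no member was called higher, against 0.468%. Since the members were chosen on this contrast, nothing is read from these shares. By log2 fold change, 1.24% of the tested genes lay below *Hmgb1* and 1.56% below *Hmgb2*. Past these, *Hmga1* at -0.24 and *Hmgn1* at -0.23 were the next lowest members, with 16.6% and 17.9% of the tested genes below them. The call of *Hmgb1* was lost without cKO-labelled library 3, where the log2 fold change was -0.66. The call of *Hmgb2* was lost without control library 1 and without cKO-labelled library 2, with a log2 fold change of -0.53 and -0.54. Without cKO-labelled library 2, 6 genes of the whole table were called.

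**Figure D1:**
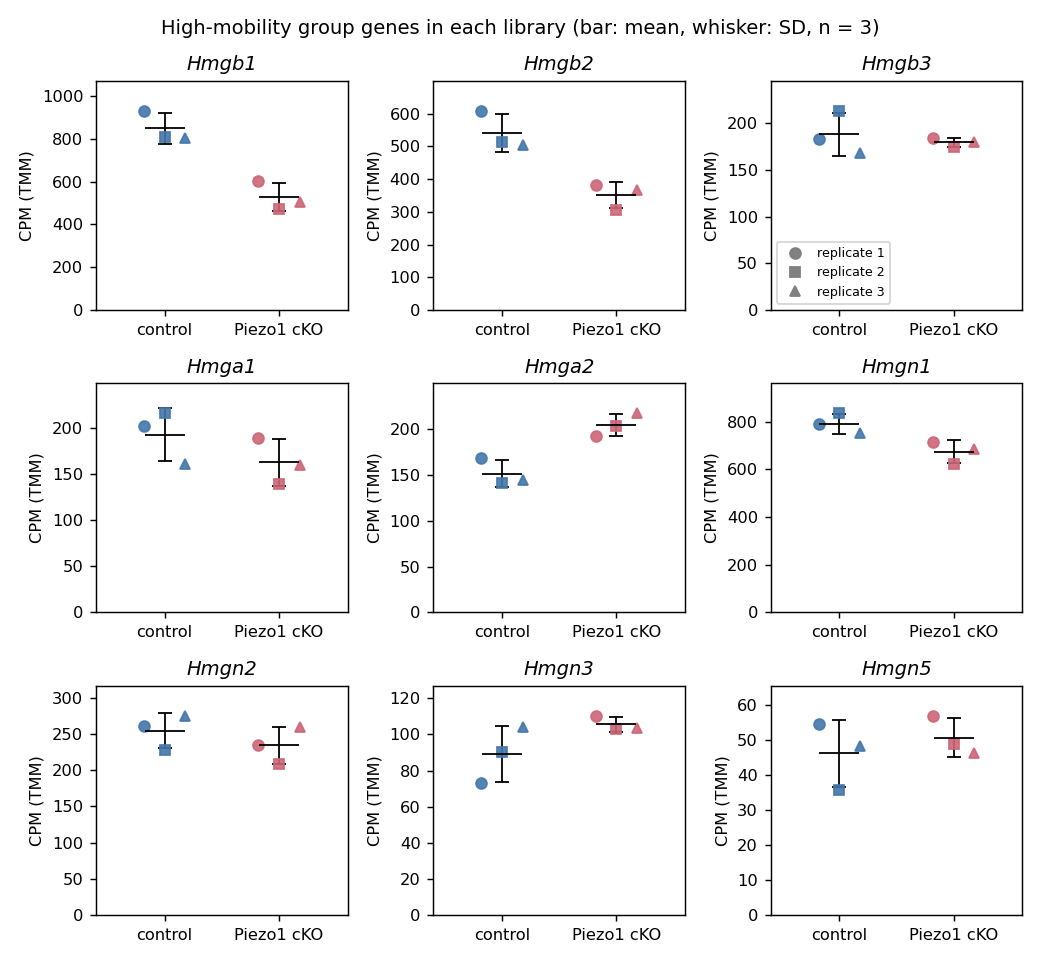
TMM-scaled CPM of each of the 9 genes (y axis, from 0) in the 3 control libraries (blue) and the 3 cKO-labelled libraries (red), with the replicate number as the symbol, the mean as a bar and the SD as whiskers. *Hmgb1*, *Hmgb2* and *Hmgn1* lie lower in every red library than in any blue one, *Hmga2* lies higher, and the other 5 genes overlap. Of all genes tested, 8.31% lie lower in this way and 8.2% higher.

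The Hmga genes differed from each other. *Hmga2* lies on chromosome 10 from 120361275 to 120476469, on the minus strand. It had 168, 142 and 144 CPM in the control libraries and 193, 203 and 217 CPM in the cKO-labelled libraries. Every cKO-labelled library lay above every control library, but edgeR did not call the gene. The mean was 151 ± 14.7 CPM (SD, n = 3) in control, against 204.5 ± 12.4 CPM (SD, n = 3) in the cKO-labelled libraries, or 135% of control, with a log2 fold change of 0.44 and a standard error of 0.14. It was positive in all 14 alternative fits, including those without each library. Of all genes tested, 8.2% had every cKO-labelled library above every control library and 8.31% had every one below.

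*Hmga1*, on chromosome 17 from 27556497 to 27563674 on the plus strand, had 201, 215 and 161 CPM in control. It had 189, 139 and 159 CPM in the cKO-labelled libraries, and the groups overlapped. Its log2 fold change was -0.24 with a standard error of 0.15, and ranged from -0.37 without cKO-labelled library 1 to -0.14 without control library 2. *Hmga1b*, a copy of *Hmga1* with no introns on chromosome 11 from 120762794 to 120764419, has a row of its own, with counts of 162, 260 and 148 for control and of 167, 104 and 129 for the cKO-labelled libraries. Its counts were 115% of those of *Hmga1*. Over 1538 aligned bases of the 2 transcripts there are 3 mismatches (99.8% identity), and the 324 coding bases are identical. The first 120 coding bases of either gene are printed to show that reads from here cannot be assigned to one of them.
*Hmga1* and *Hmga1b*: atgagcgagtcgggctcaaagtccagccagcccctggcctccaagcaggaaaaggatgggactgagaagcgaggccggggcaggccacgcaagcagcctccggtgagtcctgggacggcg
Reads of the pair are therefore uncertain in both rows. Their summed level was 425 ± 85.4 CPM (SD, n = 3) in control, against 335.5 ± 62.4 CPM (SD, n = 3) in the cKO-labelled libraries. With the counts summed before the fit, a setting chosen after seeing the data, the log2 fold change of *Hmga1* was -0.34 and it was not called. *Hmga1b* alone was not called either (log2 fold change -0.42, edgeR, Benjamini-Hochberg adjusted p = 0.256).

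*Hmga2* is the textbook target of let-7, and its target sites are printed because it was the one member whose cKO-labelled libraries all lay above control. The seed of let-7a-5p, bases 2 to 8 of the mature RNA, is in capitals in the RefSeq sequence below. The capitals in the 4 sites mark CTACCTC, which pairs with this seed, in the 3′ untranslated region of the principal *Hmga2* transcript, in order from the stop codon.
let-7a-5p: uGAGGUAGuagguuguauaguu
*Hmga2* site 1 (chr10:120364217-120364246): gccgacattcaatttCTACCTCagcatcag
*Hmga2* site 2 (chr10:120362980-120363009): ccccactcctcaataCTACCTCtgaatgct
*Hmga2* site 3 (chr10:120362542-120362571): ctgatttgcaaggaaCTACCTCcacacttc
*Hmga2* site 4 (chr10:120361684-120361713): aatcaaaacacactaCTACCTCttaagtcc
The sites are given on the minus strand of GRCm38. *Hmga1* and *Hmga1b* hold 1 site each and the other 7 members 0. Of 20245 genes with such a region in the annotation, 8.35% hold at least 1 site and 11 (0.0543%) hold at least as many as *Hmga2*. MicroRNAs were not measured in these libraries, and whether any site was bound is not known from them.

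Among the Hmgn genes, *Hmgn1* was the most abundant and the one whose groups did not overlap. Of all genes tested, 8.31% had every cKO-labelled library below every control library. *Hmgn1* lies on chromosome 16 from 96120618 to 96127729, on the minus strand, and had 788, 834 and 751 CPM in control. In the cKO-labelled libraries it had 716, 621 and 686 CPM. The mean was 791 ± 41.8 CPM (SD, n = 3) in control, against 674 ± 48.8 CPM (SD, n = 3), or 85.3% of control, with a log2 fold change of -0.23 and a standard error of 0.14, and edgeR did not call it. With cyclic loess scaling the log2 fold change was -0.05. *Hmgn2*, on chromosome 4 from 133964738 to 133968650, had between 228 and 275 CPM in control and between 209 and 259.7 CPM in the cKO-labelled libraries, with overlapping groups and a log2 fold change of -0.12 (standard error 0.14). That value ranged from -0.20 without cKO-labelled library 3 to -0.04 without cKO-labelled library 2.

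*Hmgn3*, on chromosome 9 from 83109948 to 83146685, had 73.3, 90.3 and 104 CPM in control and 110.3, 103 and 103 CPM in the cKO-labelled libraries. Its groups overlapped through control library 3, and its log2 fold change was 0.23 with a standard error of 0.17, or 0.12 without control library 1 and 0.36 without control library 3. *Hmgn5*, a member with a long acidic tail encoded on the X chromosome from 109004534 to 109013404, had the lowest level, with 54.7, 35.7 and 48.4 CPM in control and 57.0, 48.9 and 46.4 CPM in the cKO-labelled libraries. With 32 to 45 counts in a library, its log2 fold change of 0.15 had a standard error of 0.23, the largest among the members, and was -0.01 without control library 2. For *Hmgn5* the standard error was larger than the log2 fold change, and what could be detected at this depth was not tested.

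The spread between libraries set how firmly these values can be read. In control, the coefficient of variation was 8.37% for *Hmgb1* and 5.28% for *Hmgn1*, where counting error alone gives 3.82% and 3.94%. It was 20.9% for *Hmgn5*, where counting error gives 16.4%, so most of the spread of this gene was that of its few counts. For *Hmga2* the coefficient was 9.72% against a counting error of 9.05%.

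**Figure D2:**
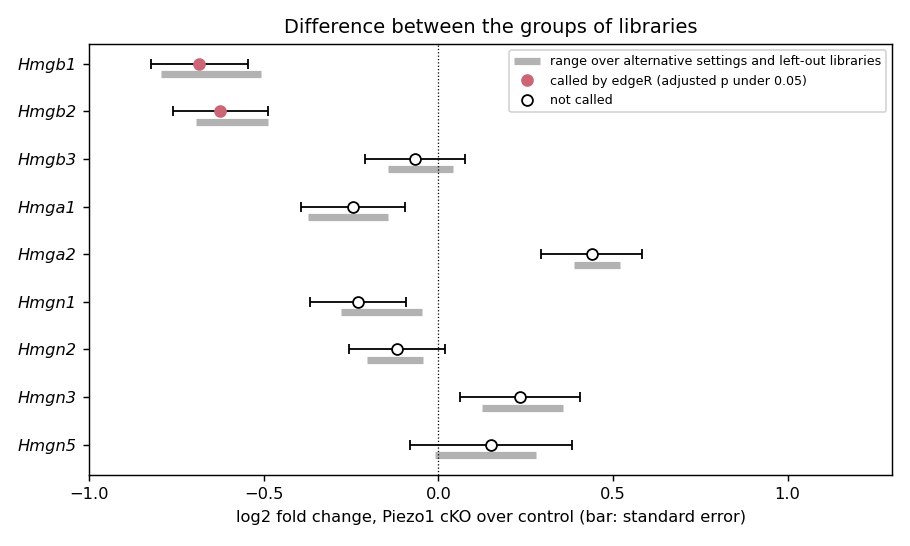
Log2 fold change of each gene (x axis, cKO-labelled libraries over control) with its standard error from edgeR, filled where the gene was called, and grey bars for the range over the alternative settings and the fits without each library. *Hmgb1* at -0.68 and *Hmgb2* at -0.62 stand apart on the left, *Hmga2* at 0.44 is farthest to the right, and the grey bars of *Hmgb3* and *Hmgn5* cross 0.

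Because HMG genes have many processed copies, the sequence that the members share with other genes was measured. Oligo-dT priming places reads towards the 3′ end, so the last 1000 bases of the principal protein-coding transcript in GENCODE M21 (the longest of those tagged as principal by APPRIS) were cut into every window of 100 bases and each window was looked for in the transcripts of all other genes. For *Hmgb1*, *Hmgb2*, *Hmga2*, *Hmgn1* and *Hmgn5*, 0 of 901 windows occurred elsewhere. The share was 2.22% for *Hmgb3*, 17.6% for *Hmgn3*, 44.0% for *Hmgn2* and 71.1% for *Hmga1*. In windows of 50 bases it was 15.8% for *Hmgb3*, 4.10% for *Hmga2*, 22.1% for *Hmgn3*, 69.8% for *Hmgn2* and 84.2% for *Hmga1*, and 0 for the other 4. The principal *Hmgn3* transcript has only 983 bases, and a longer one of 1391 bases shared 0 of its last 901 windows. *Hmgb1* has 2 shorter protein-coding transcripts, of 1092 and 1720 bases, that end before this stretch, and 65.6% and 79.7% of their last windows occurred in other genes. The counts do not show which transcript end was used, so the uncertainty of *Hmgb1* is small for the long form and large for the short forms. For *Hmgb2*, with 1 such transcript, no window of the end occurred in a transcript of another gene. Of the windows of the whole transcript 20.0% were shared, against 33.1% for the long *Hmgb1* transcript. Only exact matches in annotated transcripts were searched, so inexact copies and copies outside the annotation were not examined.

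The rows of copies that the table lists were small for *Hmgb1*. The 10 rows named as pseudogenes or related sequences, *Hmgb1l*, *Hmgb1-rs17* and *Hmgb1-ps1* to *Hmgb1-ps9* without *Hmgb1-ps8*, held from 1 to 17 counts each over the 6 libraries, together 2.35% of the counts of *Hmgb1*. Added to *Hmgb1*, they gave 868 ± 71.7 CPM (SD, n = 3) in control, against 540.5 ± 66.3 CPM (SD, n = 3) in the cKO-labelled libraries, and the log2 fold change remained at -0.68. *Hmgn2* shared its windows mainly with *Gm10282*, a gene on chromosome 8 with counts of 148, 201 and 235 for control and of 165, 165 and 163 for the cKO-labelled libraries. With *Gm10282* added, the log2 fold change of *Hmgn2* was -0.14. Both sums were chosen after seeing the data. Reads that map to several places may have been left out before counting, a setting that is not given in the sources used here, and such reads are in none of these rows.

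**Figure D3:**
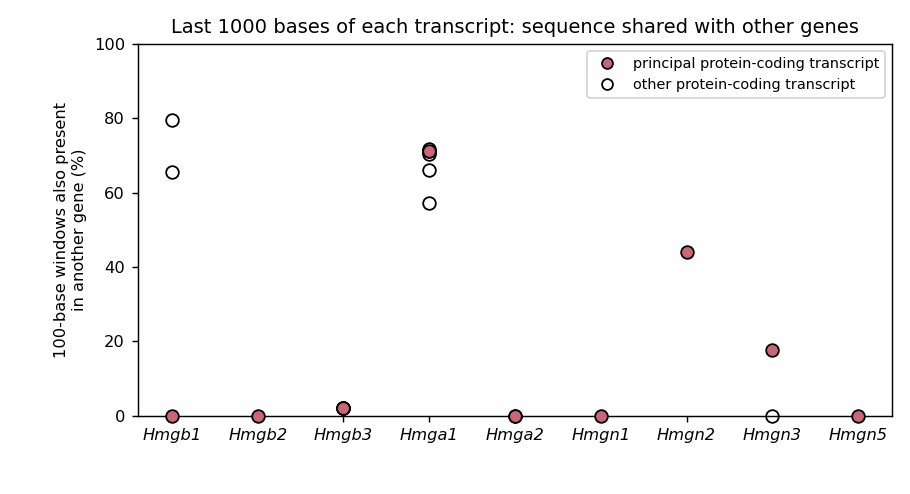
Share of the 100-base windows in the last 1000 bases of a transcript that also occur in another gene (y axis, percent) for each gene (x axis), with the principal protein-coding transcript filled and other protein-coding transcripts open. *Hmgb2*, *Hmga2*, *Hmgn1* and *Hmgn5* lie at 0, *Hmga1* lies between 57.3% and 71.7%, *Hmgn3* lies at 17.6% for its principal transcript and at 0 for a longer one, and *Hmgb1* lies at 0 for its long transcript and at 65.6% and 79.7% for the short ones.

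Summed over the family, Hmgb counts were 1578 ± 128 CPM (SD, n = 3) in control, against 1058 ± 107 CPM (SD, n = 3) in the cKO-labelled libraries, 67.0% of control. The Hmgn sum was 1181 ± 5.67 CPM (SD, n = 3) and 1065 ± 73.3 CPM (SD, n = 3), or 90.2% of control, and the groups did not overlap. The Hmga sum was 344 ± 34.4 CPM (SD, n = 3) and 367 ± 21.4 CPM (SD, n = 3), or 107% of control, with overlapping groups. *Hmga1b* shares much of its sequence with *Hmga1*, so their reads can be told apart only in part. With *Hmga1b*, the Hmga sum was 576 ± 86.8 CPM (SD, n = 3) in control. It was 539.9 ± 57.2 CPM (SD, n = 3) in the cKO-labelled libraries, or 93.7% of control. The direction of the Hmga sum thus depends on that row. All 9 genes together gave 3103 ± 156 CPM (SD, n = 3) in control, against 2489 ± 197 CPM (SD, n = 3) in the cKO-labelled libraries, 80.2% of control. The make-up of the families differed as well. *Hmga2* made up 45.5%, 39.7% and 47.3% of the Hmga counts in control, but 50.5%, 59.5% and 57.8% in the cKO-labelled libraries, so that it passed the *Hmga1* row in all 3 of them. With *Hmga1b* in the sum, a setting chosen after seeing the data, the shares of *Hmga2* were 27.9%, 21.9% and 30.1% in control, but 32.5%, 42.4% and 39.7% in the cKO-labelled libraries, still without overlap, and it lay below the pair in every library. *Hmgb3* made up 11.9 ± 1.70% (SD, n = 3) of the Hmgb counts in control and 17.0 ± 1.27% (SD, n = 3) in the cKO-labelled libraries, with no overlap. These shares follow from the levels that chose the members and were not tested.

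**Figure D4:**
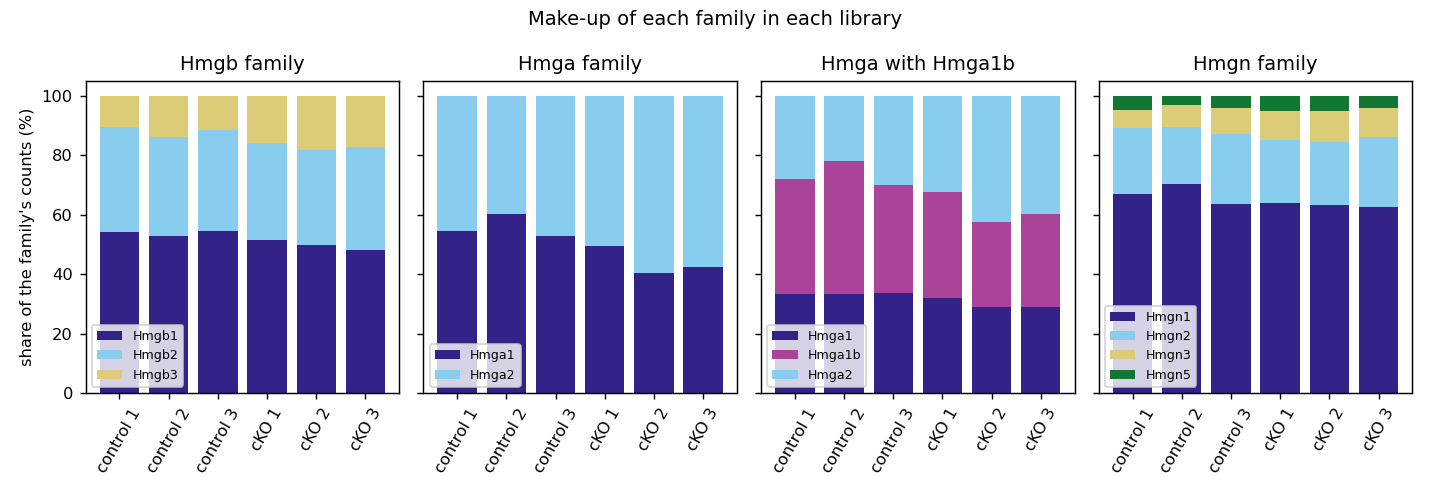
Share of each family's counts held by each member (y axis, percent, stacked to 100) in the 6 libraries (x axis), with the Hmga family also drawn with *Hmga1b*. The share of *Hmga2* is 39.7% to 47.3% in control and 50.5% to 59.5% in the cKO-labelled libraries. With *Hmga1b* it is 21.9% to 30.1% and 32.5% to 42.4%. In the Hmgn family, *Hmgn1* lies between 62.6% and 70.2% over all libraries. *Hmgn3* lies at 6.23% to 8.82% in control and at 9.43% to 10.5% in the cKO-labelled libraries.

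By CPM in control, the order of levels was *Hmgb1*, *Hmgn1*, *Hmgb2*, *Hmgn2*, *Hmga1*, *Hmgb3*, *Hmga2*, *Hmgn3* and *Hmgn5*. The neighbours *Hmgb1* and *Hmgn1*, *Hmga1* and *Hmgb3*, and *Hmgb3* and *Hmga2* overlapped between control libraries. Counts at the 3′ end depend little on transcript length, but divided by the length of the principal transcript the levels were 364 CPM per kb for *Hmgn1*, 299 for *Hmgb1*, 206 for *Hmgb2*, 201 for *Hmgn2* and 108 for *Hmgb3*, followed by 96.2 for *Hmga1*, 90.7 for *Hmgn3*, 40.8 for *Hmga2* and 23.9 for *Hmgn5*. On this scale 3 of the 9 genes kept their place. In the cKO-labelled libraries, *Hmgn1* was first by CPM and *Hmgb1* second, and *Hmga2* stood above both *Hmgb3* and the *Hmga1* row. The place of *Hmga1* rests on how its reads were divided, since with *Hmga1b* the pair had 425 CPM in control, above *Hmgn2*, and 335.5 CPM in the cKO-labelled libraries, above both *Hmgn2* and *Hmga2*. In control, *Hmgb1* lay above 98.3% of the genes tested by CPM and *Hmgn5* above 43.3%.

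Likeness of profiles was measured as the root mean square difference of log2 CPM, centred on the mean of the 6 libraries, among 2016 genes tested with a mean log2 CPM of at least 7. The closest gene to *Hmgb1* was *Hmgb2*, at 0.07, followed by *Pnn* (0.09), which encodes a splicing-associated protein, *Hnrnpa1* (0.12), which encodes an RNA-binding protein, *Ncl* (0.14), which encodes nucleolin, and *Hsp90aa1* (0.14), which encodes a chaperone. *Pnn* had a mean of 247 CPM in control and 157 CPM in the cKO-labelled libraries. *Ncl* had means of 1734 and 1144 CPM. The genes closest to *Hmga2* were *Rragc*, *Cxxc5*, *Slc44a1*, *Rnf7* and *Bbln*, at 0.04 to 0.10. Those closest to *Hmgn1* were *Ccdc124*, *Abcf2*, *Got2*, *Tpm4* and *Eif4a3*, at 0.03 to 0.04. Between members, *Hmgb1* and *Hmga2* were farthest apart, at 0.58, and *Hmgb3* and *Hmgn1*, at 0.11, were close although they belong to different families. The 6 libraries share the group difference, so this likeness is not independent of it.

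Other genes of chromatin were taken from hand-written lists, which were chosen with earlier results of these data known. Calls and adjusted p-values in these lists are therefore a description and no independent evidence. The lists were read from the same edgeR fit over all genes tested. In that fit the median log2 fold change was 0.00 and 49.8% of the genes were below 0. The members had a median of -0.12, with 6 of 9 below 0. Of 30 genes listed for HMG-box proteins outside the Hmgb family, 21 were tested. Among the 21 was *Capn15*, which encodes a calpain and no HMG-box protein (log2 fold change -0.09, not called). Of the 21, 0 were called lower and 1, *Sox11*, higher, against 0.316% and 0.468% of all genes tested. *Sox11*, on chromosome 12, encodes a transcription factor of progenitor cells, and it had 34.5, 37.9 and 31.9 CPM in control and 60.8, 71.3 and 64.9 CPM in the cKO-labelled libraries. Its log2 fold change was 0.91 (edgeR, adjusted p = 0.0243). DESeq2 gave *Sox11* no adjusted p, and the call was lost with cyclic loess, with the replicate number as a block, and without control library 3 or cKO-labelled library 2 or 3. The median of this list was -0.01.

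Histone chaperones carry histones to and from DNA. Of 18 genes listed for them and for the FACT complex, 16 were tested, 3 were called lower, against 0.316% of all genes tested, and 0 higher. Of those tested, 12 lay below 0, with a median log2 fold change of -0.29. *Supt16*, on chromosome 14, encodes the large subunit of FACT and fell from 115 ± 24.6 CPM (SD, n = 3) to 65.6 ± 3.86 CPM (SD, n = 3), a log2 fold change of -0.81 (edgeR, adjusted p = 0.00775). *Ssrp1*, which encodes the subunit of FACT that itself carries an HMG box, is named for that box after its values were seen, and it was not called, with a log2 fold change of -0.28 (edgeR, adjusted p = 0.416). *Anp32a*, on chromosome 9, and *Anp32b*, on chromosome 4, encode acidic nuclear proteins that bind histones. *Anp32a* had 97.8, 63.6 and 86.2 CPM in control and 49.4, 47.6 and 33.1 CPM in the cKO-labelled libraries (log2 fold change -0.91, edgeR, adjusted p = 0.0122). *Anp32b* fell from 687 ± 121 CPM (SD, n = 3) to 446 ± 34.5 CPM (SD, n = 3), a log2 fold change of -0.62 (edgeR, adjusted p = 0.00776). Without cKO-labelled library 2 or without 3, 0 genes of this list were called, without control library 1 there was 1, and without cKO-labelled library 1 there were 5. DESeq2 did not call *Supt16* or *Anp32a*, cyclic loess did not call *Anp32b*, and *Supt16* was not called without control library 2.

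Linker histones and histone variants had no called gene, against 0.316% called lower and 0.468% called higher of all genes tested. Of 7 linker histone genes 5 were tested, with a median log2 fold change of 0.21. How fully oligo-dT priming captured the transcripts of linker histones was not tested. *H1f0*, known from differentiated cells, had a log2 fold change of 0.15 (edgeR, adjusted p = 0.743), and *H1f4* one of -0.49 (edgeR, adjusted p = 0.502). All 9 histone variant genes were tested, with a median of 0.00. *H3f3b*, which encodes H3.3, had a log2 fold change of -0.27 (edgeR, adjusted p = 0.464), and *H2az1*, which encodes H2A.Z, one of -0.20 (edgeR, adjusted p = 0.581).

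Of 15 genes listed for the release, receptors and partners of HMGB1, 8 were tested. Of these, 1 was called lower and 0 higher, against 0.316% and 0.468% of all genes tested. *Thbd*, on chromosome 2, encodes thrombomodulin, a membrane protein known to bind HMGB1, and it fell from 31.0 ± 7.41 CPM (SD, n = 3) to 12.2 ± 5.61 CPM (SD, n = 3), a log2 fold change of -1.35 (edgeR, adjusted p = 0.0243). That call was lost with total counts, cyclic loess and the replicate block, and without control library 2 or cKO-labelled library 1 or 2. DESeq2 gave *Thbd* no adjusted p, and it was not tested under the filter of at least 10 counts in every library. The receptors *Ager*, *Tlr2*, *Tlr4* and *Cxcr4*, which are named for their role after their values were seen, did not pass the filter, and *Ager* had at most 1.33 CPM in any library, under the floor. *Cxcl12*, the chemokine that forms the complex with HMGB1, is named for the same reason and was measured at 257 ± 39.6 CPM (SD, n = 3) in control, against 287 ± 30.8 CPM (SD, n = 3) in the cKO-labelled libraries, with overlapping groups.

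Of 12 genes listed for the Lin28, let-7 and Igf2bp axis of *Hmga2*, *Lin28a* and *Lin28b* had no row, so their levels are not known here. Of the 12, 7 were tested, with a median of 0.05. Of these, 0 were called in either direction, against 0.316% lower and 0.468% higher of all genes tested. The most abundant, *Nras* and *Drosha*, had log2 fold changes of 0.15 (edgeR, adjusted p = 0.739) and -0.04 (edgeR, adjusted p = 0.958). *Igf2bp1* and *Igf2bp3* had 0 counts in all libraries, which allows up to the floor of 3 counts in each. *Igf2bp2*, named after its values were seen, had 17.3, 3.35 and 9.45 CPM in control and 22.8, 26.4 and 15.9 CPM in the cKO-labelled libraries, with overlapping groups and a log2 fold change of 1.18 that was not called (edgeR, adjusted p = 0.162).

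Proliferation markers, the last list, were read because *Hmgb2* is known to follow the cell cycle. All 26 were tested, 24 of them lay below 0 with a median log2 fold change of -0.25, and 2 were called lower and 0 higher, against 0.316% and 0.468% of all genes tested. *Cenpf*, on chromosome 1, encodes a kinetochore protein and fell from 139 ± 4.95 CPM (SD, n = 3) to 89.4 ± 10.4 CPM (SD, n = 3), a log2 fold change of -0.63 (edgeR, adjusted p = 0.0294). *Hells*, on chromosome 19, encodes a chromatin remodeller and fell from 139 ± 21.8 CPM (SD, n = 3) to 85.5 ± 10.4 CPM (SD, n = 3), a log2 fold change of -0.70 (edgeR, adjusted p = 0.0148). Both calls were lost with DESeq2, total counts, cyclic loess and the replicate block, and without control library 2 or cKO-labelled library 2 or 3. Without control library 1 there was 1 called gene in the list, and without cKO-labelled library 1 there were 4. Beside these, *Hmgb1* and *Hmgb2* stood at -0.68 and -0.62. The myocyte sum, by contrast, was higher in the cKO-labelled libraries. The part of proliferation or differentiation in the lower *Hmgb1* and *Hmgb2* counts was not tested.

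**Figure D5:**
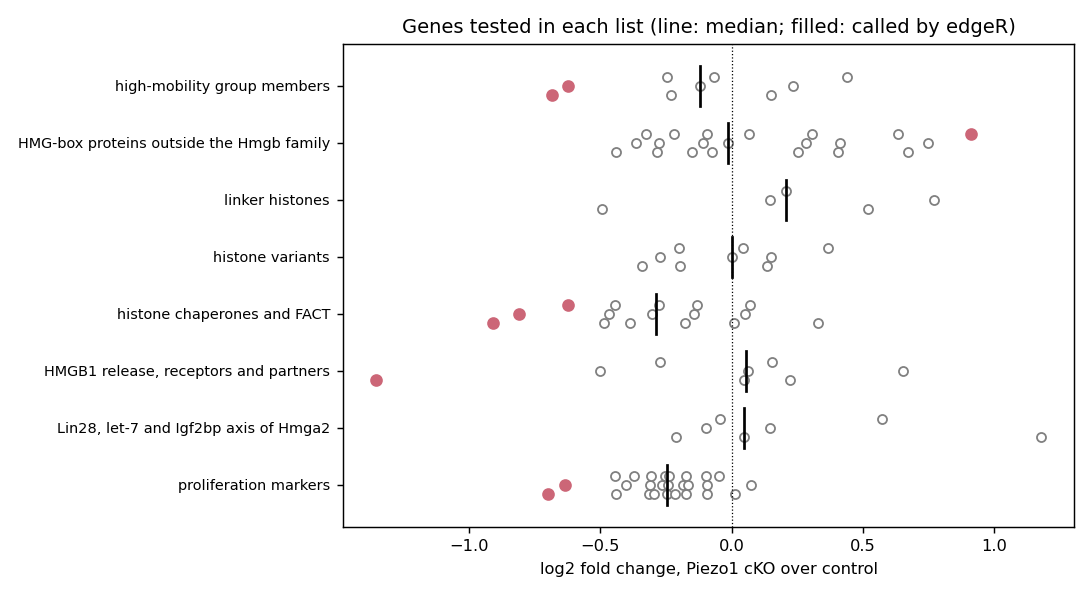
Log2 fold change (x axis, cKO-labelled libraries over control) of every tested gene of the HMG set and of each list, with the median as a line and the genes called by edgeR filled. The called genes are *Hmgb1* and *Hmgb2* among the members, *Sox11* on the right, and *Supt16*, *Anp32a*, *Anp32b*, *Thbd*, *Cenpf* and *Hells* on the left.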

How the data were processed

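The deposited values were UMI counts per gene, 1 column per library, with no normalisation. The authors mapped reads of 150 bp in pairs, from 500 pg of RNA and 12 cycles of PCR, to GRCm38 with STAR 2.7.9a, assigned them with featureCounts 2.0.1 and counted with UMI-tools 1.1.1 (versions from the submitters' processing notes). Settings for multi-mapping reads and strand are not given in the sources used here. The members, the lists and the tests were chosen with earlier results of these data known.

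Counts were fitted in R 4.3.3 with edgeR 4.0.16 (TMM, robust quasi-likelihood fit, group as the only term, filter with a minimum count of 10, Benjamini-Hochberg adjustment over 8551 genes, threshold 0.05). *Piezo1* did not pass the filter and was kept for its own test. Alternatives were DESeq2 1.42.0, limma 3.58.1 (voom, also with cyclic loess), DESeq2 size factors, total counts, other filters, a replicate block, an adjusted p under 0.1 and each library left out. Scripts were tested on simulated data. Within groups, chi-square per degree of freedom between libraries was 1.64 to 2.61, so no library was a copy of another. The genes named are the members, the called genes of each list or otherwise its 2 most abundant, the 5 nearest profiles of *Hmgb1*, *Hmga2* and *Hmgn1*, related rows of members, markers of cell types and *Piezo1*, beside a few that the text marks as named after their values were seen. Sequences are from GENCODE M21 transcripts and RefSeq tables on GRCm38, and the symbols of 8 of 9 members matched a RefSeq promoter. *Hmgn3* did not.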

Additional observations from a re-analysis of the deposited data

How the results depend on the processing

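*Hmgb1* and *Hmgb2* were both called under all alternatives except 3 of the fits without 1 library, where 1 of the 2 was called. Leaving out each library gave 1 to 2 called members and 6 (without cKO-labelled library 2) to 174 (without library 1) called genes in the table. Of 129 log2 fold changes of members under alternatives, 127 moved by less than 1 SD of the libraries. Those that moved further were both with cyclic loess, *Hmgb1* at -0.51 and *Hmgn1* at -0.05. The sign of *Hmgb3* was positive in 2 of 14 alternative fits and that of *Hmgn5* negative in 1 of 14. Divided by transcript length, 3 of 9 members kept their place in the order of levels.

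Over the table, 67 genes were called by edgeR, 27 by DESeq2, 22 with cyclic loess, 129 with no filter and 124 at an adjusted p under 0.1. Scaled by total counts, 45 genes were higher and 18 lower (71.4% higher, against 59.7%), whereas DESeq2 called 12 higher and 15 lower (44.4% higher). The HMG-box list had 0 called genes under DESeq2, cyclic loess and the replicate block, the list of HMGB1 partners 0 under DESeq2, total counts, cyclic loess, a minimum of 10 counts in every library and the replicate block, and the proliferation list 0 under DESeq2, total counts, cyclic loess and the replicate block. Without each library in turn, the HMG-box list had 0 to 1 called genes, the chaperones 0 to 5, the HMGB1 partners 0 to 1, the Lin28 list 0 to 1 and the proliferation list 0 to 4. DESeq2 gave the called genes of the first 2 of these lists, *Sox11* and *Thbd*, no adjusted p, and the minimum of 10 counts left *Thbd* out. The cause of the other changes was not tested.

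Libraries share replicate numbers across groups, but the correlations of their deviations were -0.14, -0.20 and 0.01, which gave no sign of pairing by number. Whether libraries of the same number shared a day or a batch was not tested. A replicate block gave 46 called genes, 36 of them shared with the fit without it, and both *Hmgb1* and *Hmgb2* were among them. With 3 libraries a group, *Hmga2* was not called at a log2 fold change of 0.44 with a standard error of 0.14. How often a difference of that size would be called at this depth was not tested.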
